A study of Caenorhabditis elegans with 41 samples.

Results

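The genes described here are 10 collagens of the Caenorhabditis elegans cuticle that were picked by name, 10 of the 20390 gene identifiers in the mRNA-seq files: col-19 (ZK1193.1), bli-1 (C09G5.6), bli-2 (F59E12.12), rol-6 (T01B7.7), sqt-1 (B0491.2), sqt-3 (F23H12.4), lon-3 (ZK836.1), dpy-5 (F27C1.8), dpy-13 (F30B5.1) and dpy-17 (F54D8.1). Each was followed through 23 poly(A) mRNA-seq libraries of whole worms, as FPKM (fragments scaled to transcript length and to the mapped fragments of the library). Because of that scaling, levels of different genes can be set side by side.

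The study asked whether extra copies of chromosome segments are compensated in mRNA level in this worm, a question not taken up here. SP117 carries the duplication mnDp10 (X;I) with unc-3(e151) X and gave 2 embryo, 4 L2-L3 larva and 3 young adult libraries. BC4289 carries sDp10 (IV;X) and gave 2 L2-L3 larva and 3 young adult libraries. TY1916 carries yDp11 (X;IV) with lon-2(e678) and unc-9(e101) on X and gave 3 embryo libraries. VC100, with unc-112(r367) V and the deletion gkDf2 X, gave 3 embryo libraries. OP37 carries the transgene wgIs37, a tagged pha-4 with unc-119(+), and gave 3 libraries labelled embryos. Embryos were mixed-age eggs from bleached adults, larvae had grown for 24 h, and young adults were taken the following day. Every strain with mRNA-seq libraries here carries a rearrangement or a transgene. Nothing in the labels says that replicates were separate cultures, so the p-values measure only the spread between these libraries.

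The cuticle is an extracellular coat, built mostly of cross-linked collagens, that the epidermis (hypodermis) secretes anew at the end of embryogenesis and at each molt. Collagen genes are transcribed in waves tied to the molting cycle, and some are used for the adult cuticle alone. Mutations in single collagen genes change the shape of the whole animal and gave the genes their names: Dumpy (short and fat), Squat, Roller (helically twisted), Long and Blister.

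The library labels were checked before the collagens were read. The 3 OP37 libraries resembled larvae: Spearman's rho over 14253 genes was 0.906 to 0.937 with L2-L3 libraries and 0.502 to 0.704 with the embryos of the other strains, and all 8 early embryo genes listed (end-1, end-3, ceh-51 and others) stayed below 1 FPKM. Their deposited library names carry L3. They are named the OP37 libraries labelled embryos and kept apart from the embryos. VC100 embryo replicate 1 stood apart from the other VC100 embryos, with the early embryo genes summing to 288 FPKM against 161 and 183, and 11 molting genes to 505 against 1404 and 1464. Young adult replicate 2 of both strains also stood apart, as described with its collagens. The 5 yolk protein genes listed summed to 17609 to 24244 FPKM in the 6 young adult libraries and to 40.0 or less elsewhere. The deposited library names carry one prefix for all young adults, another for larvae and embryos and yet another for OP37, and what a prefix means was not given. In comparisons with young adults, stage and whatever the prefix marks cannot be told apart. Embryos and larvae share a prefix, but whether they share a batch was not given either. In whole worms, fewer epidermal cells and less RNA per cell cannot be told apart either.

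The leading genes differed by stage. Genes called embryo, larval or adult genes below are so named for these libraries alone, and larvae were sampled only at 24 h of growth. In the 8 embryo libraries sqt-3 and dpy-17 gave 52.9 to 65.5% and 34.2 to 46.8% of the summed FPKM of the 10 genes. In the 6 L2-L3 libraries sqt-3 kept 28.0 to 32.4%, and dpy-13 (26.9 to 30.6%), dpy-5 (17.1 to 20.8%), sqt-1 (11.7 to 14.3%) and rol-6 (6.80 to 8.51%) held nearly all the rest. In the 6 young adult libraries col-19 alone held 76.6 to 95.4%. The 10 transcripts together were 0.288 to 0.916% of all transcripts (TPM, a transcript's share of the library) in embryos, 0.246 to 0.735% in larvae and 0.214 to 0.264% in young adults. Larvae overlapped both other stages in this total, and embryos and young adults did not overlap.

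**Figure D1:**
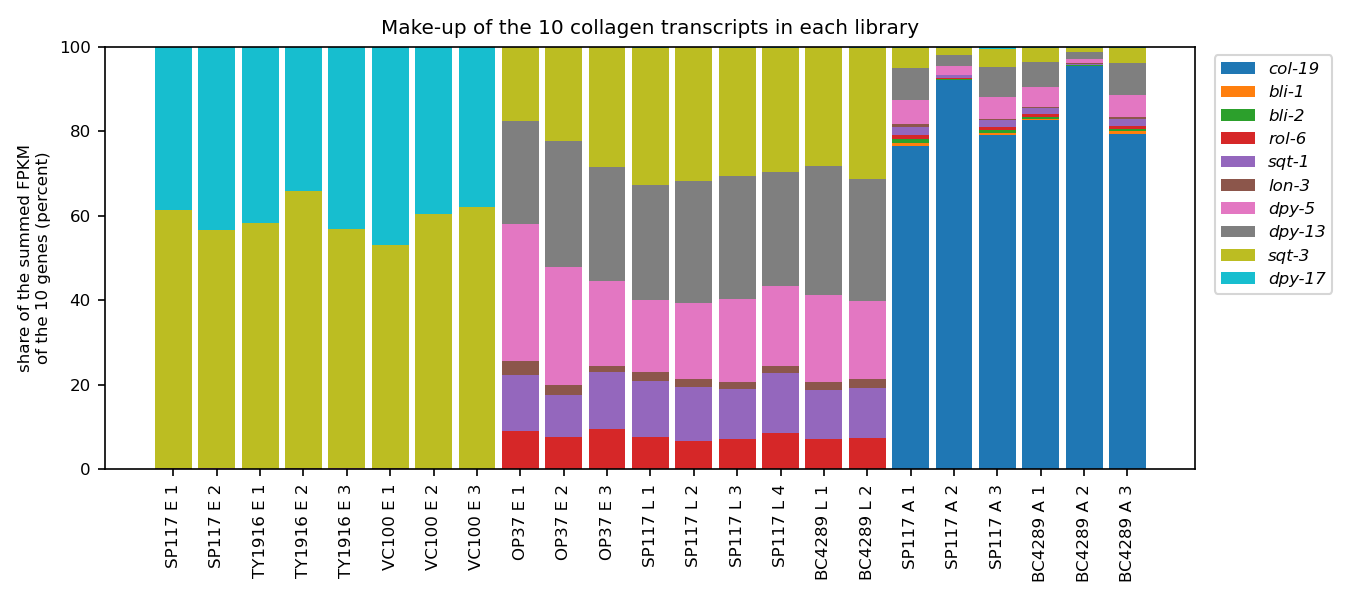
Stacked bars give, for each of the 23 libraries (E embryos, L L2-L3 larvae, A young adults, then the replicate number), the percent of the summed FPKM of the 10 genes held by each gene. Embryo bars are sqt-3 and dpy-17, larval bars are shared by sqt-3, dpy-13, dpy-5, sqt-1 and rol-6, and col-19 fills 76.6 to 95.4% of young adult bars, while the OP37 bars resemble the larval ones.

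col-19, on chromosome X (421707 to 422777, WS220), encodes an adult collagen widely used as a marker of adult epidermal fate. In SP117 young adults it stood at 1966, 2270 and 1972 FPKM, and in BC4289 young adults at 2279, 2485 and 2343 FPKM. Larval libraries held 2.03, 0.718, 0.122 and 0.139 FPKM in SP117 and 1.20 and 0 FPKM in BC4289. The lowest young adult library was thus 362 times the highest of the 14 larval and embryo libraries, 5.44 FPKM in TY1916 embryo replicate 2. On the log2(FPKM + 0.1) scale used for every test here, the young adult level exceeded the larval level by 11.9 ± 0.76 (SE; limma, BH-adjusted p = 7.48e-06) in SP117 and by 12.7 ± 1.05 (adjusted p = 0.000472) in BC4289. Genes were tested if their mean over the libraries compared was at least 1 FPKM. With larval means of 0.753 FPKM in SP117 and 0.601 FPKM in BC4289, col-19 passed this filter only through its young adults. The filter thus fixed the direction of its tests. The larval values are so low that these log2 differences lean on the pseudocount and on single libraries: without SP117 larva replicate 1 the value was 12.5, and the BC4289 value was 14.5 without larva replicate 1 and 10.8 without larva replicate 2. A library standing alone in its group was taken to vary like the other group.

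Traces of col-19 above 1 FPKM occurred in 6 libraries that were not young adults. In 5 of them (TY1916 embryo replicate 3, with 1.99 FPKM of col-19, among them) the yolk protein genes, which adult intestine expresses, summed to 17.6 to 40.0 FPKM: 40.0 FPKM in TY1916 embryo replicate 2 (col-19 5.44), 24.7 in VC100 embryo replicate 1 (1.94), 17.9 in SP117 embryo replicate 2 (1.31) and 17.6 in SP117 larva replicate 1 (2.03). BC4289 larva replicate 1 had 1.20 FPKM of col-19 with a yolk sum of 0.963. In the 11 libraries other than young adults with less col-19, OP37 included, the yolk sum was 1.74 or less. The part of carried-over adult material in these traces was not tested.

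bli-1 (chromosome II, 10708900 to 10712066) and bli-2 (chromosome II, 5651391 to 5652408) encode collagens of the struts that hold the layers of the adult cuticle together, and their loss lets the cuticle blister. bli-1 stood at 15.1, 4.43 and 10.2 FPKM in SP117 young adults, at 10.0, 1.97 and 15.3 FPKM in BC4289 young adults, and at 0.452 FPKM or less in every larval and embryo library. Its lowest young adult library was 4.36 times the highest of the others, and replicate 2 was the lowest in both strains. Young adults exceeded larvae by 5.40 ± 0.50 log2 units (adjusted p = 4.01e-05) in SP117 and by 4.87 ± 1.14 (adjusted p = 0.0125) in BC4289. With larval means of 0.123 FPKM in SP117 and 0.226 FPKM in BC4289, bli-1 also passed the filter only through its young adults. The filter thus fixed the direction of these tests, and their size leans on the 0.1 added before the log.

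bli-2 stood at 25.9, 5.55 and 15.3 FPKM in SP117 young adults and at 11.6, 3.06 and 20.4 FPKM in BC4289 young adults. Its larval values were 2.62, 0.762, 0.776 and 0.0736 FPKM in SP117 and 1.09 and 0.472 FPKM in BC4289, so the groups did not overlap, but the lowest young adult was only 1.17 times the highest larva. The stage difference was 4.09 ± 0.92 log2 units (adjusted p = 0.00413) in SP117 and 3.46 ± 0.86 (adjusted p = 0.0153) in BC4289. In BC4289, with a larval mean of 0.7825 FPKM, bli-2 passed the filter only through its young adults. Without SP117 larva replicate 4 the SP117 value was 3.37, and without SP117 larva replicate 1 it was 4.69. The BC4289 calls were lost without larva replicate 2, where bli-1 gave 3.63 (adjusted p = 0.0742) and bli-2 gave 2.93 (adjusted p = 0.0950). Without larva replicate 1 the bli-1 value was 6.10 and was called (adjusted p = 0.0218).

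rol-6 (chromosome II, 8732999 to 8734264) is a Roller gene whose dominant allele is a common transformation marker and whose product acts with that of sqt-1. It stood at 602, 648, 576 and 443 FPKM in SP117 larvae and at 585 and 276 FPKM in BC4289 larvae. It stood at 23.7, 6.35 and 18.6 FPKM in SP117 young adults and at 17.1, 4.69 and 20.7 FPKM in BC4289 young adults. Every larval library lay above every young adult library, the lowest larva at 11.7 times the highest young adult. The difference was -5.31 ± 0.42 log2 units in SP117 (adjusted p = 1.84e-05) and -5.07 ± 0.72 in BC4289 (adjusted p = 0.00239), a fold of 39.5 and 33.6.

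sqt-1 (chromosome II, 11336626 to 11337771), a Squat and Roller gene, followed it at a higher level, with 1045, 1202, 979 and 744 FPKM in SP117 larvae and 958 and 454 FPKM in BC4289 larvae. In young adults it gave 49.1, 13.9 and 39.1 FPKM in SP117 and 38.8, 7.14 and 43.8 FPKM in BC4289. The ratio of sqt-1 to rol-6 was nearly fixed among larvae, at 1.64 to 1.86 over 6 libraries, with a coefficient of variation of 4.69% against 29.3% for sqt-1 and 26.5% for rol-6. Among young adults the ratio ran from 1.52 to 2.27. The stage difference of sqt-1 was -5.03 ± 0.41 log2 units in SP117 (adjusted p = 2.19e-05) and -4.83 ± 0.88 in BC4289 (adjusted p = 0.00531).

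dpy-13 (chromosome IV, 4235606 to 4236699) and dpy-5 (chromosome I, 5432160 to 5433059), both Dumpy genes, were with sqt-3 the most abundant of these collagens in larvae. dpy-13 stood at 2144, 2757, 2384 and 1401 FPKM in SP117 larvae and at 2506 and 1089 FPKM in BC4289 larvae, and at 197, 63.5 and 175 FPKM and 160, 39.5 and 221 FPKM in the young adults of the same strains. dpy-5 stood at 1354, 1727, 1594 and 993 FPKM in SP117 larvae and at 1703 and 695 FPKM in BC4289 larvae. Its young adult levels were 146, 47.7 and 130 FPKM in SP117 and 128, 27.7 and 159 FPKM in BC4289. For both genes all larval libraries lay above all young adult libraries, the lowest larva at 4.93 times (dpy-13) and 4.37 times (dpy-5) the highest young adult. The dpy-13 to dpy-5 ratio was 1.41 to 1.60 in the 6 larval libraries and 1.24 to 1.43 in the 6 young adult libraries, with a coefficient of variation of 4.81% and 4.56%, although each gene varied by 31.2 to 51.8%. dpy-13 changed by -4.02 ± 0.41 log2 units in SP117 (adjusted p = 6.80e-05) and -3.89 ± 0.82 in BC4289 (adjusted p = 0.00883), and dpy-5 by -3.84 ± 0.40 (adjusted p = 6.71e-05) and -3.72 ± 0.86 (adjusted p = 0.0120).

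lon-3 (chromosome V, 12197413 to 12198606) works opposite to the Dumpy genes, since its loss makes the worm longer and extra copies make it shorter. It stood at 168, 178, 136 and 83.1 FPKM in SP117 larvae and at 142 and 80.3 FPKM in BC4289 larvae, the lowest of the larval genes. Young adults held 14.96, 4.30 and 10.9 FPKM in SP117 and 12.01, 2.64 and 13.2 FPKM in BC4289. The stage difference was -3.92 ± 0.44 log2 units in SP117 (adjusted p = 0.000110) and -3.81 ± 0.77 in BC4289 (adjusted p = 0.00739). In BC4289 the calls of dpy-5, dpy-13 and lon-3 were lost without larva replicate 1, at -3.07, -3.28 and -3.40 log2 units with adjusted p of 0.0755, 0.0586 and 0.0515. Without larva replicate 2 dpy-5 gave -4.36 and dpy-13 -4.49, both called.

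sqt-3 (chromosome V, 12352974 to 12354295), a collagen whose precursor is cut by the protease DPY-31, was abundant in both embryos and larvae. It gave 2561, 3007, 2462 and 1533 FPKM in SP117 larvae, 2296 and 1175 FPKM in BC4289 larvae, 120, 43.0 and 105 FPKM in SP117 young adults and 91.5, 25.8 and 107 FPKM in BC4289 young adults. The lowest larva or embryo was 9.77 times the highest young adult. The young adult minus larva difference was -4.83 ± 0.38 log2 units in SP117 (adjusted p = 1.91e-05) and -4.70 ± 0.70 in BC4289 (adjusted p = 0.00270).

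dpy-17 (chromosome III, 5107288 to 5108550), another Dumpy collagen, was the only one of the 10 without a larva-to-adult call. It stood at 26.8, 2.53, 18.9 and 8.81 FPKM in SP117 larvae and at 7.62, 6.45 and 12.5 FPKM in SP117 young adults, which overlapped. In BC4289 it stood at 4.47 and 4.97 FPKM in larvae and at 9.06, 6.28 and 4.49 FPKM in young adults, which overlapped as well. The log2 difference was -0.28 ± 0.75 in SP117 (95% interval -2.03 to 1.46; adjusted p = 0.742) and 0.42 ± 0.33 in BC4289 (-0.41 to 1.26; adjusted p = 0.287).

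**Figure D2:**
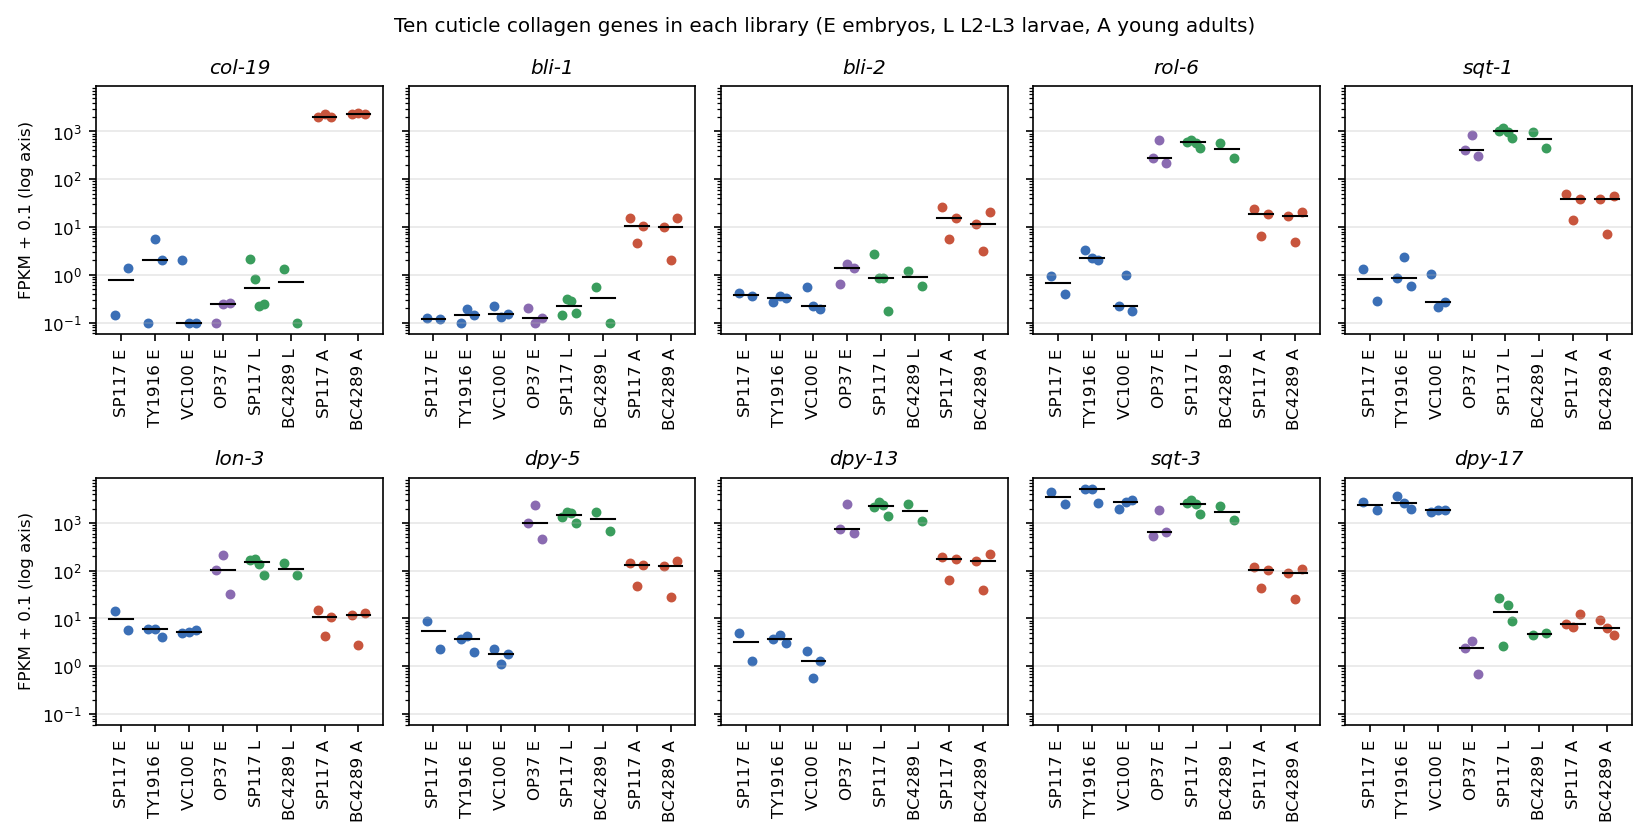
Each panel gives one gene's FPKM + 0.1 on a log axis in the 23 libraries by strain and stage (E embryos, L L2-L3 larvae, A young adults), with a line at each group's median. col-19, bli-1 and bli-2 are high only in young adults, rol-6, sqt-1, lon-3, dpy-5 and dpy-13 in larvae and the OP37 libraries, dpy-17 in the embryos of the 3 other strains, and sqt-3 in both embryos and larvae.

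Counted together, 3 of the 10 genes were higher in SP117 young adults than larvae and 6 were lower. The filter fixed the direction for col-19 and bli-1 in both strains and for bli-2 in BC4289. Changes of this kind were common: of the 13593 genes tested 36.7% were called higher and 40.1% lower. In BC4289 the count was again 3 higher and 6 lower, where 36.7% and 37.3% of 13722 genes were called, and with TPM in place of FPKM 65.8% of all calls there were higher in place of 49.6%. The members' counts were therefore near the background in frequency, and their median log2 differences of -3.88 in SP117 and -3.76 in BC4289 stood beside a median of -0.15 and -0.14 over all genes tested.

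No strain difference in the stage change was detected for the 10 genes. The difference between the strains' stage differences lay between -0.81 and 0.63 log2 units, with 95% intervals reaching from -3.84 to 3.77, and none of the 10 was called by limma (smallest adjusted p = 0.926; 0 of 10 at an unadjusted p under 0.05; 0.0291% of 13740 genes called, and 971 at an unadjusted p under 0.05). Without both young adult libraries numbered 2, an alternative chosen after the data were seen, the count was again 0 of 10.

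**Figure D3:**
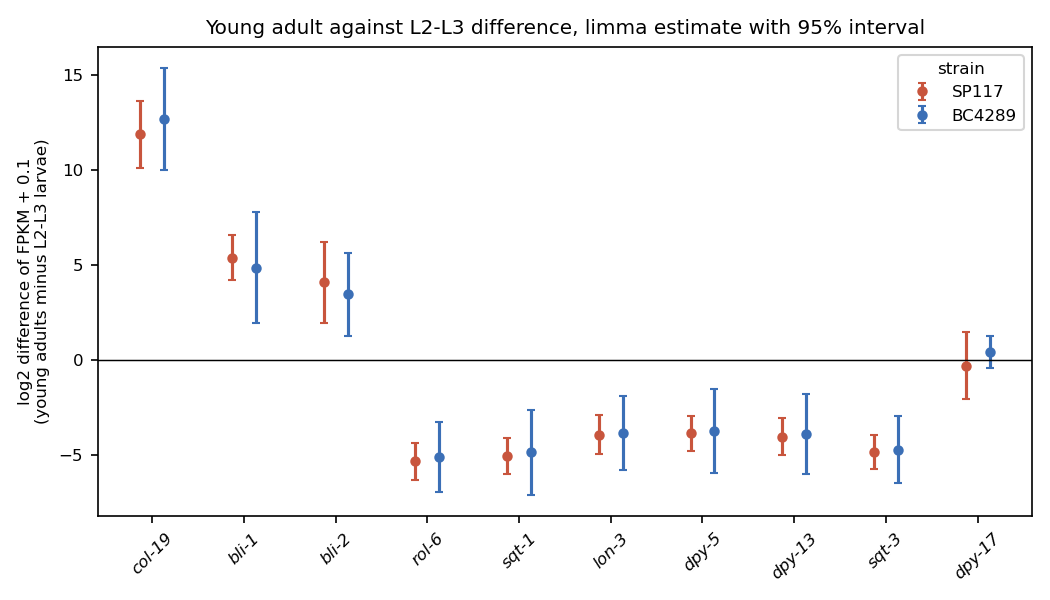
Points give the limma estimate of the log2(FPKM + 0.1) difference, young adults minus L2-L3 larvae, for each gene in SP117 (red) and BC4289 (blue), and bars give its 95% interval. col-19, bli-1 and bli-2 lie above 0 in both strains, dpy-17 straddles 0, and the other 6 lie between -3.72 and -5.31.

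Among young adults, replicate 2 was low for 8 of the 10 genes in both strains. The ratio of replicate 2 to the mean of replicates 1 and 3 was 0.269 to 0.382 in SP117 and 0.156 to 0.260 in BC4289 for bli-1, bli-2, rol-6, sqt-1, lon-3, dpy-5, dpy-13 and sqt-3. For col-19 it was 1.15 and 1.08, and for dpy-17 0.640 and 0.927. Over all genes the median ratio was 0.883 in SP117 and 0.896 in BC4289. The molting list, 11 genes that act around each molt such as mlt-10, noah-1 and nas-37, was low in the same libraries, with a median ratio of 0.398 over 11 genes in SP117 and 0.314 over 9 in BC4289. Collagens of the col- series had a median ratio of 0.808 in SP117 and 0.251 in BC4289. The yolk protein genes had 0.947 and 1.56. The part of worm age in this was not tested. Leaving out BC4289 young adult replicate 2 moved 8 stage differences toward larger adult levels by 1.56 to 1.82 times (for dpy-5 from -3.72 to -2.93) and ended no call.

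**Figure D4:**
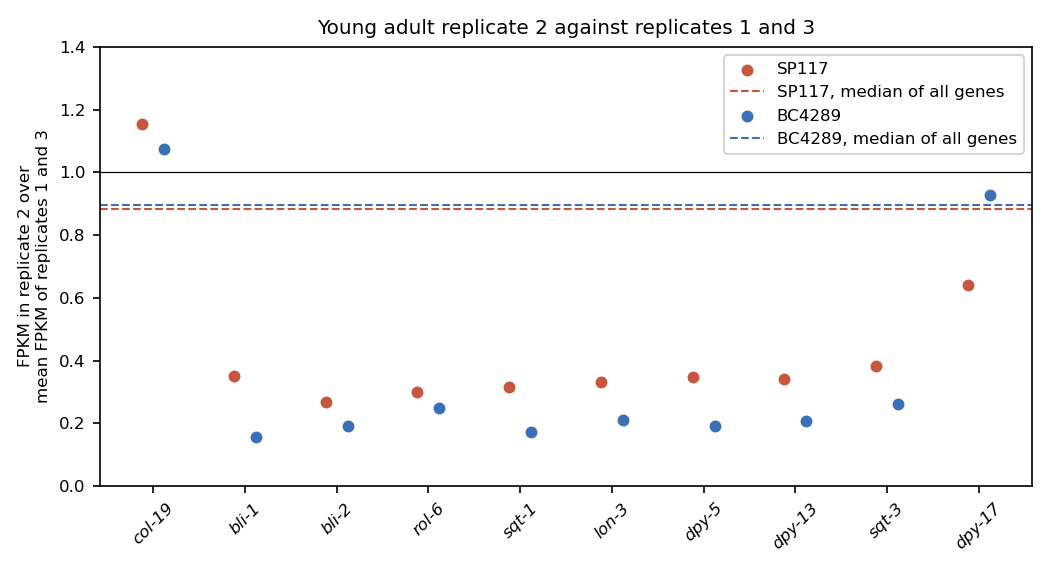
Points give, for each gene, the FPKM of young adult replicate 2 divided by the mean FPKM of replicates 1 and 3 in SP117 (red) and BC4289 (blue), with the median of all genes as dashed lines (0.883 and 0.896). Both points are at 0.382 or lower for 8 genes, and above 1 for col-19.

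Larval libraries varied together too. SP117 replicate 4 and BC4289 replicate 2 were the lowest of their group for rol-6, sqt-1, lon-3, dpy-5, dpy-13 and sqt-3, and the molting list summed to 822 FPKM in SP117 replicate 4 against 1782 to 1832 in the others and to 1163 against 1622 FPKM in the BC4289 pair. dpy-17 did not follow, with its lowest SP117 larval value, 2.53 FPKM, in replicate 2.

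Some other collagens were also lower, and some higher, in young adults than larvae. The 6 furrow collagens (dpy-2, dpy-3, dpy-7, dpy-8, dpy-9 and dpy-10), whose products form the rings of the annular furrows, were lower in young adults than larvae in 6 of 6 cases in both strains, with medians of -5.34 and -5.74 log2 units. dpy-3 moved most, from a mean of 271 FPKM in larvae to 5.16 in young adults of SP117 and from 290 to 4.95 in BC4289, and dpy-8 and dpy-9 fell by 5.64 and 5.50 log2 units in SP117. Of 8 further shape and adult collagens, dpy-4, rol-8 and sqt-2 fell and bli-6, rol-1, col-7 and col-62 rose in both strains, and dpy-14 had no call. bli-6, a Blister gene, averaged 138 FPKM in SP117 young adults and 0.381 in larvae, and rol-1, a Roller gene, 98.6 and 0.332 FPKM. With these larval means the filter fixed the direction of both SP117 tests. sqt-2 fell from 696 FPKM in SP117 larvae to 22.02 in young adults, and dpy-4, from 2340 to 169 FPKM, kept the highest young adult level of the falling genes in this list. Roller genes were thus found on both sides, rol-1 being high in young adults and rol-6 and rol-8 in larvae, while bli-1, bli-2 and bli-6 were all high in young adults. Of the numbered col- genes, 40 of 121 tested were higher and 62 lower in SP117, and 39 and 40 of 128 in BC4289. Over all genes tested, 36.7% were called higher and 40.1% lower in SP117, and 36.7% and 37.3% in BC4289.

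Genes of collagen processing and cross-linking, not all of them enzymes, were mostly lower in young adults. Of 13 listed, 11 were lower in SP117 young adults and 9 in BC4289, and none was higher. Of all genes tested, 40.1% were called lower in SP117 and 37.3% in BC4289. They included pdi-2, a disulfide isomerase subunit of prolyl hydroxylase (638 FPKM in young adults against 2532 in larvae in SP117, -1.94 ± 0.24 log2 units), the hydroxylase subunits dpy-18 (-1.90 ± 0.32) and phy-2 (-1.94 ± 0.40), and adt-2 (-1.72 ± 0.18), an ADAMTS metalloprotease. In BC4289 pdi-2, dpy-18, phy-2 and adt-2 gave -2.13, -2.26, -2.48 and -1.84 log2 units. Their median of -1.38 was smaller than the -3.88 of the 10 collagens, a contrast that was not tested. ero-1 and bli-4, which encode an oxidase of disulfide formation and a proprotein convertase, had no call in either strain.

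Regulators were also tested. Of the DBL-1 pathway, a TGF-beta signal that sets body size partly through cuticle collagens, 9 of 11 tested genes were lower in young adults of each strain and none was higher. Beside this and the counts below, 40.1% of all genes tested were called lower in SP117 and 37.3% in BC4289, and 36.7% higher in each. dbl-1, the ligand, stood at 4.86 FPKM in SP117 young adults and 15.2 in larvae (-1.62 ± 0.14), and sma-3, a Smad that carries its signal, at 3.26 and 14.1 FPKM. Among 6 heterochronic genes, lin-42, a period homologue that oscillates with the molts, fell from 462 to 21.2 FPKM in SP117, and lin-41 rose from 53.7 to 93.8. lin-14, which specifies early larval fates, fell from 43.8 to 7.95 FPKM. lin-29, the transcription factor that switches on col-19 at the adult molt, was lower in young adults (4.37 against 9.04 FPKM, -1.03 ± 0.17, adjusted p = 0.000738 in SP117, and -0.94 ± 0.32, adjusted p = 0.0427 in BC4289). Hypodermal marker genes (7 listed) summed to 84.95 to 100 FPKM in young adults and 215 to 364 in larvae, and 6 of 7 fell in each strain, while 9 of 9 germline genes tested rose in each. The part of tissue make-up in the collagen differences was not tested.

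Within SP117, embryos were compared with the same larval libraries. Of the 10 genes 7 passed the filter of a mean of 1 FPKM (bli-1, bli-2 and col-19 did not). dpy-17 was higher in embryos and rol-6, sqt-1, dpy-5, dpy-13 and lon-3 were lower, 1 and 5 of 7, where 40.2% of 13532 genes were called higher and 28.8% lower. With embryo means of 0.572 and 0.702 FPKM, rol-6 and sqt-1 passed the filter only through larvae and could only be called lower. Of all calls 58.3% were higher, and 70.6% with TPM, 45.6% with median-centred libraries.

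dpy-17 stood at 2790 and 1906 FPKM in SP117 embryos, at 3715, 2669 and 1986 FPKM in TY1916 embryos and at 1712, 1828 and 1838 FPKM in VC100 embryos. The lowest embryo was 63.8 times the highest larva or young adult. Embryos exceeded larvae by 7.78 ± 0.84 log2 units (adjusted p = 0.000130), and the young adult minus embryo difference was -8.07 ± 0.31 (adjusted p = 9.86e-06). Without SP117 larva replicate 2 the first value was 7.12.

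sqt-3 stood at 4411 and 2484 FPKM in SP117 embryos, 5202, 5121 and 2599 FPKM in TY1916 embryos and 1935, 2778 and 3015 FPKM in VC100 embryos, overlapping the larvae. Its embryo-to-larva difference of 0.51 ± 0.34 log2 units was not called (adjusted p = 0.217), but it was called with TPM (1.05, adjusted p = 0.0245) and with quantile normalization (1.78, adjusted p = 0.00101), which made the count 2 higher and 5 lower. The ratio of sqt-3 to dpy-17 was 1.13 to 1.92 over the 8 embryo libraries and 95.5 to 1188 over the 6 larval ones. The young adult minus embryo difference was -5.34 ± 0.48 (adjusted p = 0.000140).

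The larval genes were barely present in embryos. sqt-1 gave 1.23 and 0.177 FPKM in SP117 embryos and differed from larvae by -10.7 ± 0.55 log2 units (adjusted p = 1.05e-05), and rol-6 gave 0.841 and 0.303 FPKM and differed by -9.83 ± 0.34 (adjusted p = 2.94e-06). dpy-13 gave 4.91 and 1.18 FPKM (-9.70 ± 0.52, adjusted p = 1.15e-05). dpy-5 gave 8.69 and 2.15 FPKM (-8.29 ± 0.50, adjusted p = 1.76e-05). lon-3 stood nearer its larval level, at 14.02 and 5.62 FPKM (-3.92 ± 0.43, adjusted p = 0.000141). The SP117 embryo libraries differed from each other for all 5 genes, replicate 1 being the higher, so that leaving out either one moved these values by 1.528 to 2.195 times and ended no call. For sqt-1 the value was -11.8 without replicate 1 and -9.53 without replicate 2.

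Between SP117 young adults and the same embryos, 7 of the 10 genes were higher and 2 (sqt-3 and dpy-17) lower, where 30.7% of 13586 genes were called higher and 40.6% lower. Of the 7, col-19, bli-1, bli-2, rol-6 and sqt-1 had embryo means under 1 FPKM and passed the filter only through young adults. The filter thus fixed the direction of their tests, and the count is not free to be set against the background. The 7 included rol-6 (4.53 ± 0.66), sqt-1 (5.63 ± 0.80), dpy-5 (4.44 ± 0.69) and dpy-13 (5.68 ± 0.70), so these larval genes, though far lower in young adults than in larvae, were above their embryo levels. col-19 differed by 12.2 ± 0.87, a value that was 10.5 without embryo replicate 1 and 13.8 without embryo replicate 2. lon-3 had no call (0.0013 ± 0.61, 95% interval -1.48 to 1.49), at 4.30 to 14.96 FPKM in young adults. For rol-6, sqt-1, dpy-5 and dpy-13, leaving out either embryo library moved the value by 1.53 to 2.19 times and ended no call. This comparison shares its embryos and young adults with those above.

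Among embryos of 3 strains, TY1916 was compared with VC100. TY1916 carries a lon-2 mutation, and lon-2, a glypican that restrains DBL-1 signalling, averaged 4.07 FPKM there against 17.6 in VC100 (-2.11 ± 0.28, adjusted p = 0.00595). Of the 10 collagens 7 could be tested and 2 were called higher in TY1916, where 19.1% of 13118 genes were called higher and 8.76% lower. Of all calls 68.6% were higher, and 47.4% with quantile normalization, 52.7% with median-centred libraries.

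rol-6 stood at 3.15, 2.17 and 1.92 FPKM in TY1916 and at 0.118, 0.876 and 0.0724 FPKM in VC100, which did not overlap (2.89 ± 0.71 log2 units, adjusted p = 0.0280). dpy-13 stood at 3.59, 4.41 and 3.03 FPKM against 2.02, 0.479 and 1.18 FPKM (1.68 ± 0.51, adjusted p = 0.0454), also without overlap. All 6 values of rol-6 and of dpy-13 were under 5 FPKM, a small part of the larval levels. With a mean of 0.355 FPKM in VC100, rol-6 passed the filter only through TY1916, so the filter fixed the direction of its test. Its VC100 values of 0.118 and 0.0724 FPKM lie near the 0.1 added before the log. Neither call was made with quantile normalization, where the values shrank to 1.45 for rol-6 and 0.68 for dpy-13. With single libraries left out, rol-6 was lost without any TY1916 library or without VC100 replicate 3 (adjusted p up to 0.125), and dpy-13 was lost without any library other than VC100 replicate 1 (up to 0.148). The values in those fits were 2.42 to 3.03 for rol-6 and 1.18 to 1.81 for dpy-13. Without VC100 replicate 2 rol-6 gave 3.67 and was called.

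The other 5 had no call: sqt-3 differed by 0.70 ± 0.34 log2 units, dpy-17 by 0.59 ± 0.27, dpy-5 by 0.92 ± 0.45, lon-3 by -0.0021 ± 0.27 and col-19 by 1.94 ± 1.72. Early embryo and germline genes also differed between the 2 strains. The early embryo genes summed to 61.2 to 101 FPKM in TY1916 and 161 to 288 in VC100, 4 of 8 being lower, and 5 of 9 germline genes were lower. Of 99 numbered col- genes tested, 30 were higher in TY1916 and 1 lower. Over all genes tested, 19.1% were called higher and 8.76% lower. dpy-14, another Dumpy collagen, was higher as well (2452 against 1293 FPKM). The part of embryo age in these differences was not tested.

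SP117 embryos could be compared with VC100 for 5 of the genes, with differences of 0.36 to 1.41 log2 units and no call (smallest adjusted p = 0.809; 0.065% of 12307 genes called). Against TY1916, 0 of 7 were called (6.75% of 13226 genes called), with rol-6 lowest at -1.999 log2 units (adjusted p = 0.0716). At an unadjusted p under 0.05 limma gave 0 of 5 against VC100 (632 genes in all) and 1 of 7 against TY1916 (3614 genes). These comparisons share the embryo libraries of the one above.

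No collagen was called between strains within larvae or within young adults. SP117 larvae were above BC4289 larvae for 7 of 7 genes tested, by 0.35 to 1.12 log2 units, but limma called 0 (0 at an unadjusted p under 0.05, against 964 genes in all; smallest adjusted p = 0.777; 0.0389% of 12870 genes called), with 95% intervals from -0.89 to 3.13. In young adults the differences lay between -0.20 (col-19) and 0.53 (bli-2), with 0 of 10 called by limma (0 at an unadjusted p under 0.05, against 1012 genes in all; smallest adjusted p = 0.669; 0.109% of 12827 genes called) and intervals from -1.61 to 2.52. The 10 genes lie at 10 places on 6 chromosomes, and the median difference of the 20 tested genes around each, 10 on either side, was between -0.12 and 0.05 log2 units in larvae and -0.05 and 0.10 in young adults. These medians spread more widely among embryos. They ran from -0.37 (around bli-1) to 0.55 (around sqt-3) in TY1916 against VC100. In SP117 against TY1916 they ran from -0.45 (around sqt-3) to 0.08 (around bli-2).

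The OP37 libraries labelled embryos carried the larval set. dpy-13 stood at 741, 2548 and 613 FPKM, dpy-5 at 996, 2372 and 457, rol-6 at 277, 658 and 217 and lon-3 at 102, 211 and 33.1 FPKM, replicate 2 being the highest for each. sqt-1 was at 307 FPKM or more in all 3. The dpy-13 to dpy-5 and sqt-1 to rol-6 ratios lay below the larval ranges. The dpy-13 to dpy-5 ratio was 0.74 to 1.34 in OP37 against 1.41 to 1.60 in larvae. The sqt-1 to rol-6 ratio was 1.27 to 1.45 against 1.64 to 1.86. The sqt-1 to lon-3 ratio, at 3.95 to 9.30 against 5.66 to 8.95, reached both below and above the larvae. dpy-17, the embryo gene, was at 2.35, 3.31 and 0.586 FPKM, against 1712 FPKM or more in every embryo library of the other strains. Against VC100 embryos 5 of 7 genes were higher and 2 lower, where 28% of 13469 genes were called higher and 38.2% lower. With VC100 means of 0.355 and 0.414 FPKM, rol-6 and sqt-1 passed the filter only through OP37 and could only be called higher. The called log2 differences ran from -9.97 ± 0.56 (dpy-17) to 10.2 ± 0.65 (sqt-1). sqt-3, at 536, 1892 and 648 FPKM, was called lower (-1.54 ± 0.49, adjusted p = 0.0239), a call lost without OP37 replicate 1 or 3, without VC100 replicate 2 or 3, and with TPM (adjusted p = 0.051) or median-centred libraries (0.112). Leaving out 1 library moved other values by up to 1.72 times: rol-6 was 10.8 without VC100 replicate 2, sqt-1 10.9 without VC100 replicate 1, dpy-17 -9.28 without OP37 replicate 3, and lon-3 4.79 without OP37 replicate 3. Without OP37 replicate 2, lon-3 was 3.45, dpy-5 8.66 and dpy-13 9.18. Against the 6 larval libraries limma called 0 of 8 tested genes (2 at an unadjusted p under 0.05; 10.7% of 12895 genes called, 34.5% of them higher, and 91.5% with TPM), with differences of -1.99 (dpy-17) to 0.52 (bli-2). Without OP37 replicate 2, sqt-3 (-1.73, adjusted p = 0.0220) and dpy-13 (-1.47, adjusted p = 0.0452) were called lower, and without SP117 larva replicate 2 dpy-17 was (-2.32, adjusted p = 0.0360).

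Across the 23 libraries the 10 patterns could be ordered by Pearson's r of log2(FPKM + 0.1), a description over libraries that share stages and strains. dpy-5, dpy-13, sqt-1, rol-6 and lon-3 correlated with each other at 0.86 to 1.00. col-19, bli-1 and bli-2 did so at 0.86 to 0.93. sqt-3 and dpy-17 were at 0.56. sqt-3 was at -0.80 to -0.86 with the 3 adult genes and at -0.21 to 0.26 with the 5 larval ones. dpy-17 was at -0.60 to -0.88 with the larval genes and at -0.31 to -0.58 with the adult ones.

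**Figure D5:**
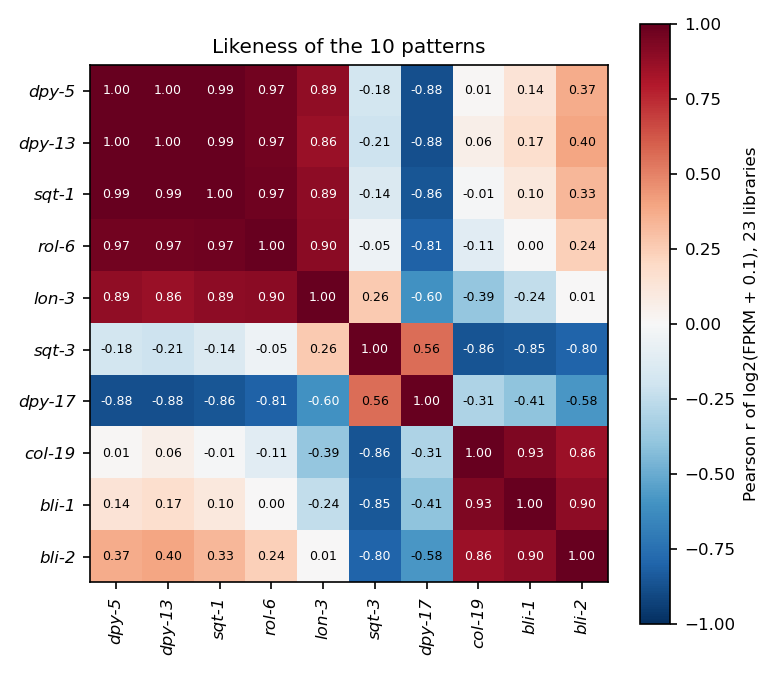
The grid gives Pearson's r of log2(FPKM + 0.1) over the 23 libraries for each pair of the 10 genes, from -1 (blue) to 1 (red). The larval genes form one red block (0.86 to 1.00) and the adult genes another (0.86 to 0.93), and dpy-17 is negative with both.

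Among 14253 genes with a mean of at least 1 FPKM, the closest patterns to these genes were often other collagens. For col-19 they were col-119 (r = 0.996), col-122 (0.994) and D1086.10 (0.990), and for bli-1 they were bli-6 (0.983), K09C6.7 (0.981) and rol-1 (0.980). bli-2 was nearest to E01G4.6 (0.942), col-138 (0.934) and col-137 (0.932). rol-6 was nearest to col-90 (0.983), sqt-2 (0.978) and fig-1 (0.978), and sqt-1 to dpy-13 (0.994), dpy-5 (0.992) and col-17 (0.992). dpy-5 and dpy-13 were each other's nearest gene (0.995), followed by col-17 (0.995) and K02E11.10 (0.995) for dpy-5 and by K02E11.10 (0.995) and sqt-1 (0.994) for dpy-13. lon-3 had no collagen among its nearest, which were Y46G5A.29 (0.974), bah-1 (0.972) and C11H1.5 (0.970). For sqt-3 they were wrt-2 (0.991), K02E10.4 (0.986) and wrt-1 (0.985), the wrt genes being Hedgehog-related. For dpy-17 they were hch-1 (0.986), which encodes the hatching protease, Y41D4B.6 (0.986) and dsl-6 (0.985).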

How the data were processed

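Poly(A) RNA of 23 libraries was sequenced as stranded mRNA-seq, and 18 DNA-seq samples of the same series were not analysed here. The deposited tables give, per gene and library, FPKM as the authors' Cufflinks run estimated it from reads aligned to WS220, and the submitters' processing notes name HISAT2 2.2.1, SAMtools 1.6 and Cufflinks 2.2.1. The deposited TPM rescales FPKM to one total in every library. These tables hold no counts, and low values gave only a rough relative depth of 11.5 to 100% across libraries, so no counting interval is given. Reads shared by near-identical collagens may have been split between genes. Of 20390 genes, 51 with a failed estimate in any library and 12 mitochondrial ones were left out.

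Each comparison was fitted with limma 3.58.1 (R 4.3.3; tables with Python 3.11.15) on log2(FPKM + 0.1) over all genes with a mean of at least 1 FPKM in its libraries, and a gene was called at a Benjamini-Hochberg adjusted p under 0.05. Fold changes on this scale understate changes of low genes. A gene with a mean under 1 FPKM in one group could pass only by being higher in the other, so the filter then fixed the test's direction. This was so for col-19, bli-1, bli-2, rol-6 and sqt-1 wherever they were called against SP117 or VC100 embryos. The script was tested on simulated data. Replicate numbers were not used as pairs in the main fits. No comparison of 3 or more pairs had every correlation of deviations above 0.1 (0.0411, 0.234 and 0.0579 for young adults of both strains). SP117 against TY1916 embryos, with fewer pairs, had 0.512 for replicate 1 and 0.243 for replicate 2. For that replicate 2 a library of another number reached 0.293. Deviations from means of so few libraries cannot settle whether same-numbered libraries were prepared together. The 10 genes and all gene lists were chosen with earlier results of these data known. The genes named are these 10, the 3 genes most like each, the called list genes with the largest change in each direction (up to 4 a comparison) and lon-2. ero-1, bli-4 and dpy-14 fell outside this rule and were chosen after their values were seen. Alternatives were other pseudocounts and filters, TPM, quantile and median scaling, one fit of all libraries, a replicate block and leaving out each library.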

Additional observations from a re-analysis of the deposited data

How the results depend on the processing

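In the larva-to-adult comparison 9 genes were called in SP117 with any 1 library left out. In BC4289 the count of 3 higher and 6 lower became 3 and 3 without larva replicate 1 and 1 and 6 without larva replicate 2, and kept its size without any 1 young adult library. In TY1916 against VC100 embryos the 2 calls became 1 when 0.01 was added before the log, without the filter or with all 23 libraries in one fit, and 0 with a filter of 5 FPKM, with quantile normalization or with the replicate block, and 0 to 2 when 1 library was left out. There dpy-5 was at -0.051 after quantile normalization. lon-3 was at 0.0011 when 1 FPKM was added before the log, at 0.11 in TPM, and at -0.11 to 0.18 when 1 library was left out. In SP117 young adults against embryos lon-3 turned to -0.25 with TPM and to -0.14 with the replicate block, and ran from -0.65 to 0.65 when 1 library was left out. The dpy-17 difference between SP117 young adults and larvae ran from -0.95 to 0.17 in the same way. In SP117 against TY1916 embryos 1 gene, rol-6, was called with the replicate block, and 0 to 1 when 1 library was left out. Against larvae, OP37 had 1 call (dpy-17) with all 23 libraries in one fit and 0 to 2 when 1 library was left out. The causes were not tested.

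Over all genes, calls between TY1916 and VC100 embryos went from 3660 to 917 with the replicate block and 2370 with the filter of 5 FPKM, and to 319, 1069 and 1879 without TY1916 replicate 1, 2 and 3 and 1220 and 1519 without VC100 replicate 2 and 3. Between SP117 and TY1916 they went from 893 to 5652 with the block, 459 with that filter and 451 with quantile normalization, and to 61, 179 and 234 without TY1916 replicate 3, 2 and 1, 388 without SP117 replicate 2 and 2336 without SP117 replicate 1. Between OP37 and larvae they went from 1383 to 4407 with TPM, 2110 with all libraries in one fit and 2106 with the block, and to between 383 (without BC4289 larva replicate 2) and 2658 (without OP37 replicate 3) with 1 library left out. Between SP117 and BC4289 young adults they went from 14 to 939 without both libraries numbered 2, an alternative chosen after seeing the data, and 0 of the 10 collagens were among them. TPM moved the median of all genes from -0.14 to 0.40 in the BC4289 stage comparison, from 0.32 to 0.90 in SP117 embryos against larvae and from -0.01 to 0.63 in OP37 against larvae. The depth behind single values is unknown, so differences among values under 1 FPKM are the least certain.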
